A study of Mus musculus with 12 samples.

Results

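Myb shRNA and scrambled shRNA were compared in mouse tracheal epithelial cultures at day 9 of growth at an air-liquid interface (ALI), where cells sit on a porous membrane and are fed from below while their upper face meets air. The comparison took the 3 arrays labelled day 9 Myb shRNA and the 3 labelled day 9 scrambled shRNA, out of 12 arrays in the series. Its members were the genes with a probe detected (p-value under 0.01) on 3 or more of these 6 arrays. Of 45281 probes 14282 met this, and they gave 8850 named genes out of 20289 with a probe. All cells were primary tracheal epithelial cells of male C57BL/6J mice, and both groups had been transduced with a lentivirus that expresses an shRNA, so that the controls carry a virus too. The remaining 6 arrays hold the same pair of shRNAs at ALI day 3. The labels do not say whether replicates came from separate animals or cultures, so p-values measure the spread between these samples, which may be technical. The shRNA sequences and the share of transduced cells were not given in the sources used here.

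Myb encodes a DNA-binding transcription factor of proliferating progenitor cells, best known from blood and also expressed in airway cells on their way to becoming secretory or multiciliated. In ALI culture basal cells first divide and then differentiate, and the multiciliated ones switch on a regulatory cascade (geminin-family factors, E2f partners, Foxj1 and Rfx factors), multiply their centrioles and assemble motile cilia. A motile cilium holds outer doublet microtubules with dynein arms and radial spokes around a central pair, and intraflagellar transport builds it from the base.

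Myb itself could not be read at day 9. None of its 4 probes was detected on any day 9 array. Its brightest probe gave 5.10, 5.36 and 4.95 for scrambled replicates 1 to 3, against 5.12, 5.35 and 5.05 for Myb shRNA replicates 1 to 3, levels at background that overlap between groups. Another of the 4 probes, also at background, gave 4.65, 4.71 and 4.95 against 4.28, 4.32 and 4.32, without overlap (-0.46 ± 0.34, adjusted p over all probes 0.651). The knockdown was thus not checked by these arrays, and the groups follow the labels. Here and below a level is a log2 normalised intensity, a difference is Myb shRNA minus scrambled on the same log2 scale, given with its SE, and replicates are listed in the order 1, 2, 3. A gene is said to have risen or fallen where limma's adjusted p was under 0.05. Between 13334 and 14941 probes were detected per day 9 array. Over the 6 arrays the first principal component (66.6% of the variance) separated the shRNAs, and the second (20.1%) set replicate 3 of both groups, at -23.4 and -11.4, apart from the others, at 4.07 to 13.3.

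Of the 8850 genes 1522 passed (17.2%), 629 higher (7.11%) and 893 lower (10.1%) with Myb shRNA. Falls were larger than rises: the median difference was -0.92 among genes that fell and 0.66 among those that rose, and of 524 genes that changed over 2-fold 405 fell. The median of all genes was 0.05. The 3 and 3 arrays did not overlap in 37.7% of genes. Counts in gene lists are to be read against the 7.11% and 10.1% of all genes that rose and fell. Of the 629 higher genes 30 were detected on no scrambled array, and of the 893 lower genes 79 on no Myb shRNA array. These met the detection rule only through the group in which they are high, so they are given as bounds of a fold, with no p. List counts include at most 1 of them, except where the count among genes detected in both groups is given too. Among the 8699 genes detected on at least 1 array of each group 599 rose and 814 fell. The count is 2329 (1147 higher, 1182 lower) with replicate number as a block, and it is 960 without scrambled replicate 3 and 1005 without Myb shRNA replicate 2. With cyclic loess in place of quantile normalisation the split was 445 higher and 1006 lower. The called genes that passed whichever of the 6 arrays was left out numbered 829.

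**Figure D1:**
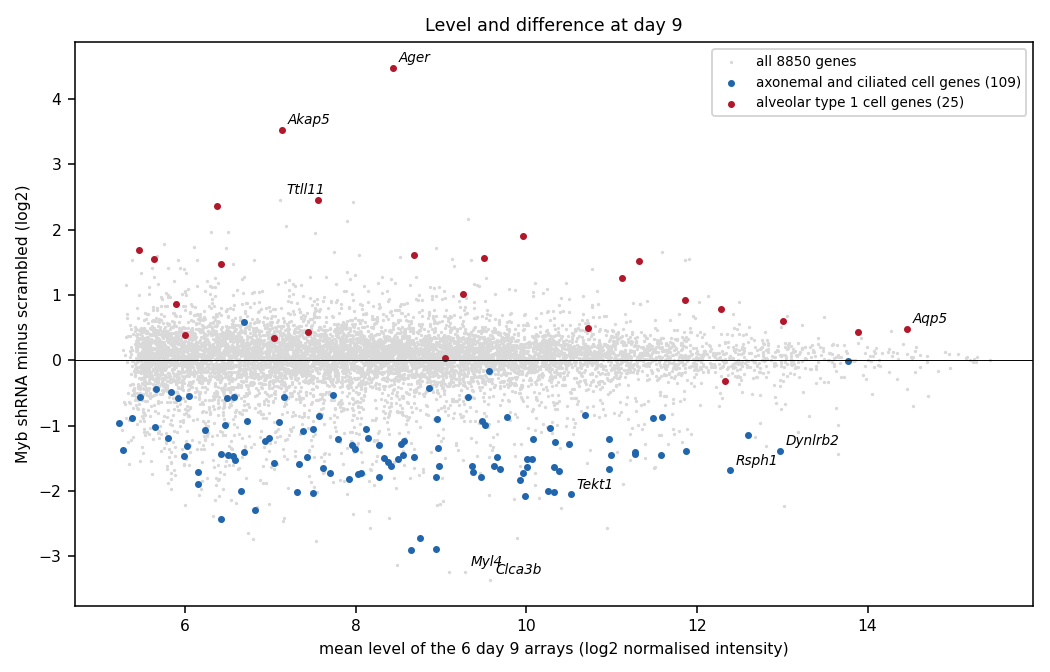
Difference between Myb shRNA and scrambled cultures at day 9 (vertical axis, log2) against the mean level of the 6 arrays (horizontal axis, log2 normalised intensity), 1 point per gene. Axonemal and ciliated cell genes lie mostly below 0 at all levels, and alveolar type 1 genes mostly above 0, with Ager at 4.48.

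Promoter sequences are shown first because the genes that fell together include many with cilia. Motif letters were looked for, on both strands, in the 250 bases before each transcript start of the RefSeq promoter table (build GRCm38.p6), which holds a window for 7109 of the 8850 genes. The Myb recognition element, searched as TAACGG or as TAACTG, and as CAACGG or as CAACTG, was in the windows of 41 of 90 axonemal and ciliated cell genes (45.6%), against 25.1% of all genes tested, 31.4% of those that fell and 21.8% of those that rose. The element was also in the windows of 41.7% of transport, BBSome and transition zone genes, 31.8% of centriole genes and 30.0% of alveolar type 1 genes. The following 4 windows belong to axonemal and ciliated cell genes that fell, hold the element and have 1 window each, and capitals mark the element. They were taken in order of p, passing over genes on 1 chromosome. Of the 4, Dnah8 was detected on no Myb shRNA array, so its place in that order rests on levels at background in that group. The Cfap161 window (chr7:83794840-83795089, minus strand) has it 3 times in a row, and Enkur (chr2:21205366-21205615, minus strand) has it once, ending 12 bases before the start. Dnah8 (chr17:30626686-30626935, plus strand) has it 2 times and Fam216b (chr14:78089008-78089257, minus strand) once. Each is written 5′ to 3′ and ends at the transcript start.
Cfap161: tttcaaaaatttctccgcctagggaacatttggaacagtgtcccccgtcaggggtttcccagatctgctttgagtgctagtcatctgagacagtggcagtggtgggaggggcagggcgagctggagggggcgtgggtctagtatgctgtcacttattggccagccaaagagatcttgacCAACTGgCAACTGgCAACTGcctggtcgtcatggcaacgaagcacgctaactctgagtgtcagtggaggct
Enkur: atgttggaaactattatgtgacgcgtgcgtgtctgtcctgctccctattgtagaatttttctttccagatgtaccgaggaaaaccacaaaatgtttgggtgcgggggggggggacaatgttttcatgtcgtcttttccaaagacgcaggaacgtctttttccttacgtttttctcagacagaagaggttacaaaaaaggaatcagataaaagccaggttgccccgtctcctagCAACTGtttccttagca
Dnah8: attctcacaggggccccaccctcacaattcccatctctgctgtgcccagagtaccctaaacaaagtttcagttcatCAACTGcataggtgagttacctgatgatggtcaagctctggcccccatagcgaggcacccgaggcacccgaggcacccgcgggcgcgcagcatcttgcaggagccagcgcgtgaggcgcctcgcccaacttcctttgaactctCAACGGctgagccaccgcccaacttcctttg
Fam216b: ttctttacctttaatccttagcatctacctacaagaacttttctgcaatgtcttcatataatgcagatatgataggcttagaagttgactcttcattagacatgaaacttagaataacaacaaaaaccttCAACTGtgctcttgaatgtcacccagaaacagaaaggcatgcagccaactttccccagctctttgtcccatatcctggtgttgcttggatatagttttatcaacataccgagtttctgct
A match of 6 letters is a description of the window and not a binding site.

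The X-box, to which Rfx transcription factors of ciliary genes bind, was searched as GTTNCC, any 2 bases and GGNAAC in a row. It was in 50 of the 7109 genes with a window (0.703%), in 14 of 719 genes that fell (1.95%) and in 0 of 491 that rose. By list, it was in 3 of 90 axonemal and ciliated cell genes (3.33%). It was also in 3 of 48 transport, BBSome and transition zone genes (6.25%) and in 0 of 22 centriole genes. The fallen members of the ciliary lists that hold it numbered 5, and their windows are shown to place the X-box, in capitals. Its last base lies at -7 from the transcript start in Pifo, -11 in Mks1, -20 in Ttc26, -87 in Iqca and -108 in Bbs7. The windows are those of Pifo (chr3:106001498-106001747, minus strand), Iqca (chr1:90153437-90153686, minus strand), Bbs7 (chr3:36613390-36613639, minus strand), Ttc26 (chr6:38381274-38381523, plus strand) and Mks1 (chr11:87852965-87853214, plus strand).
Pifo: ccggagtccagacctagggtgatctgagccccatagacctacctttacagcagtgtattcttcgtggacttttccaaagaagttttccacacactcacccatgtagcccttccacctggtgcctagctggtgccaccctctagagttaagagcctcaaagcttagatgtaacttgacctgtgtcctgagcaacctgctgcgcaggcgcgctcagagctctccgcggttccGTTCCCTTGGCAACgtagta
Iqca: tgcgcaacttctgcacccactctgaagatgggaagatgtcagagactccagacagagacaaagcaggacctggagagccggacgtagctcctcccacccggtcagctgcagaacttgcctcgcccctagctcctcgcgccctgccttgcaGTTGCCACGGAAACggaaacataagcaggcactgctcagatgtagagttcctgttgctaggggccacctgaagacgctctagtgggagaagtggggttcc
Bbs7: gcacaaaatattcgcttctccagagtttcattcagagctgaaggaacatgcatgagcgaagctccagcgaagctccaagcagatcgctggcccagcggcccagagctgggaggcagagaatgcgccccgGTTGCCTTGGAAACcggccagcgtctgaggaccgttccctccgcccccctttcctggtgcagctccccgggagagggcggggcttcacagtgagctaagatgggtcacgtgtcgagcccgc
Ttc26: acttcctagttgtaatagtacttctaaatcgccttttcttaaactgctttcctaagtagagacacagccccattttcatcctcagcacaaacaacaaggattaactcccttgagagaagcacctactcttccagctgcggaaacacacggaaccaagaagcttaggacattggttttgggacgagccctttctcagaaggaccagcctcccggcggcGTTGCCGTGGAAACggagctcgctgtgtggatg
Mks1: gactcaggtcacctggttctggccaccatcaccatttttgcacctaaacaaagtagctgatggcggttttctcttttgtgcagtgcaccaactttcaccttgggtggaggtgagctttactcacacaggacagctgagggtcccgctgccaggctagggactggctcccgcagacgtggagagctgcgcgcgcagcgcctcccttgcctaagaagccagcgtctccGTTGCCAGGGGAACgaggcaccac
A shorter X-box motif, GTTGCCA, was in 17 of 90 axonemal and ciliated cell genes (18.9%), against 4.25% of all genes tested. It was in 8.9% of genes that fell and 4.07% of those that rose. The forkhead core TGTTTAC was about as common among genes that fell (3.34%) as among all tested (2.84%).

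Genes of the ciliary axoneme fell in nearly every structural class. Of 16 axonemal dynein subunits 14 fell and none rose, or 1 rose without Myb shRNA replicate 3 (median difference -1.37, against 0.05 for all genes), of 14 docking and assembly factors 10 fell (-1.19), and of 13 radial spoke genes all 13 fell (-1.61). Further falls were those of 12 of 15 genes of the nexin-dynein regulatory complex and ruler (-1.44), 10 of 10 of the central pair (-1.20), or 7 of the 7 detected in both groups, and 14 of 18 tektins and microtubule inner proteins (-1.38). Some genes belong to more than 1 ciliary list, so these counts are not fully separate. Dnajb13 is both among the assembly factors and the radial spoke genes. Dynlrb2 is both a dynein subunit and among the other ciliated cell genes below. In bulk RNA fewer ciliated cells and less ciliary RNA per cell cannot be told apart.

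Among the dyneins, the motors of the beat, Dynlrb2, a light chain, read 13.56, 13.58 and 13.86 with scrambled shRNA, against 12.08, 12.10 and 12.67 with Myb shRNA. All 3 Myb shRNA arrays lay below all scrambled ones, with replicate 3 highest in both groups, and the difference was -1.39 ± 0.19 (adjusted p = 0.000286). The intermediate chains Wdr63 and Wdr78 of inner arms fell by 2.43 and 1.70, the former detected on 1 of 3 Myb shRNA arrays, and the outer arm intermediate chain Dnaic2 fell by 2.00. Dnali1, an inner arm light intermediate chain, fell by 1.24 and Dnal1, an outer arm light chain, by 1.05. Dnah8, a heavy chain, was detected on no Myb shRNA array and was at least 1.79-fold lower. The outer arm heavy chain Dnah9 read 8.69, 8.64 and 10.31 against 7.01, 7.04 and 8.77. The groups overlap, since Myb shRNA replicate 3 exceeds scrambled replicates 1 and 2, yet within each replicate number Myb shRNA was lower. Its difference of -1.61 ± 0.51 had an adjusted p of 0.0459, and 3.67e-05 with the replicate block. Dnah9 lost its call without scrambled replicate 3 or Myb shRNA replicate 1 or 2 (adjusted p up to 0.201), and the list count was 9 without any 1 of these arrays. The heavy chains that did not pass were Dnah11, at 0.59 ± 0.27, and Dnah2, at -0.57 ± 0.28, which passed with the block (adjusted p = 0.0257).

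Dynein arms are preassembled in the cytoplasm and then docked to the doublet. Ccdc114, of the outer arm docking complex, read 9.10, 9.19 and 9.46 against 7.54, 7.42 and 8.27, with no overlap (-1.51 ± 0.26, adjusted p = 0.00152). The assembly factors Zmynd10, Dnaaf3 and Lrrc6 fell by 1.28, 1.34 and 1.48, and Ccdc103, an attachment factor, by 0.95. Armc4, another docking component, was at -1.18 ± 0.40 (adjusted p = 0.0588, and 0.000655 with the block). Pih1d1, a chaperone cofactor that is not specific to cilia, was at -0.17 ± 0.16.

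Radial spokes carry signals from the central pair to the dyneins. Rsph9, a spoke head protein, read 11.93, 11.87 and 12.13 with scrambled shRNA, against 10.43, 10.38 and 10.92 with Myb shRNA. The groups do not overlap, and the difference was -1.40 ± 0.16 (adjusted p = 0.000101). The head proteins Rsph1 and Rsph4a fell by 1.68 and 1.62, the neck protein Dnajb13 by 1.51, Nme5 by 1.43, and Lrrc23, of the third spoke, by 1.63. Rsph3a, a stalk protein, fell by 0.56, a call lost without scrambled replicate 1 or 3 or Myb shRNA replicate 1 or 2 (adjusted p up to 0.0788). The regulatory complex that links doublets and tunes dynein fell with Drc1 at -1.53 ± 0.24, Drc3 at -1.44 ± 0.25 and Ccdc153 at -1.73 ± 0.24. The molecular ruler Ccdc39 fell by 1.23, a call lost without scrambled replicate 3 or Myb shRNA replicate 2 (adjusted p up to 0.0562), while its partner Ccdc40 was at -0.85 ± 0.35 (adjusted p = 0.124, and 0.00358 with the block).

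The central pair gene Spag6l read 10.99, 11.09 and 11.60 against 9.26, 9.24 and 10.11, again without overlap, and fell by 1.69 (adjusted p = 0.000572). Spef1, a microtubule bundler of the same structure, fell by 1.21. Cfap54 and Cfap221 were detected on all scrambled and no Myb shRNA arrays, and were at least 1.11-fold and 1.33-fold lower.

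Inside the doublets, Cfap161 showed one of the largest falls. Its levels were 10.02, 10.01 and 10.29 with scrambled shRNA, against 7.11, 7.27 and 7.79 with Myb shRNA. All Myb shRNA arrays lay far below all scrambled ones (-2.72 ± 0.21, adjusted p = 1.53e-05). Tekt1, a tektin filament protein, fell by 2.05, Enkur by 1.74, Spaca9 by 1.72 and Cfap126 by 1.66. Nme7, a nucleoside diphosphate kinase family protein with roles beyond the cilium, was nearly equal in both groups, at 13.77 ± 0.05 and 13.76 ± 0.08 (SD, n = 3 each).

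**Figure D2:**
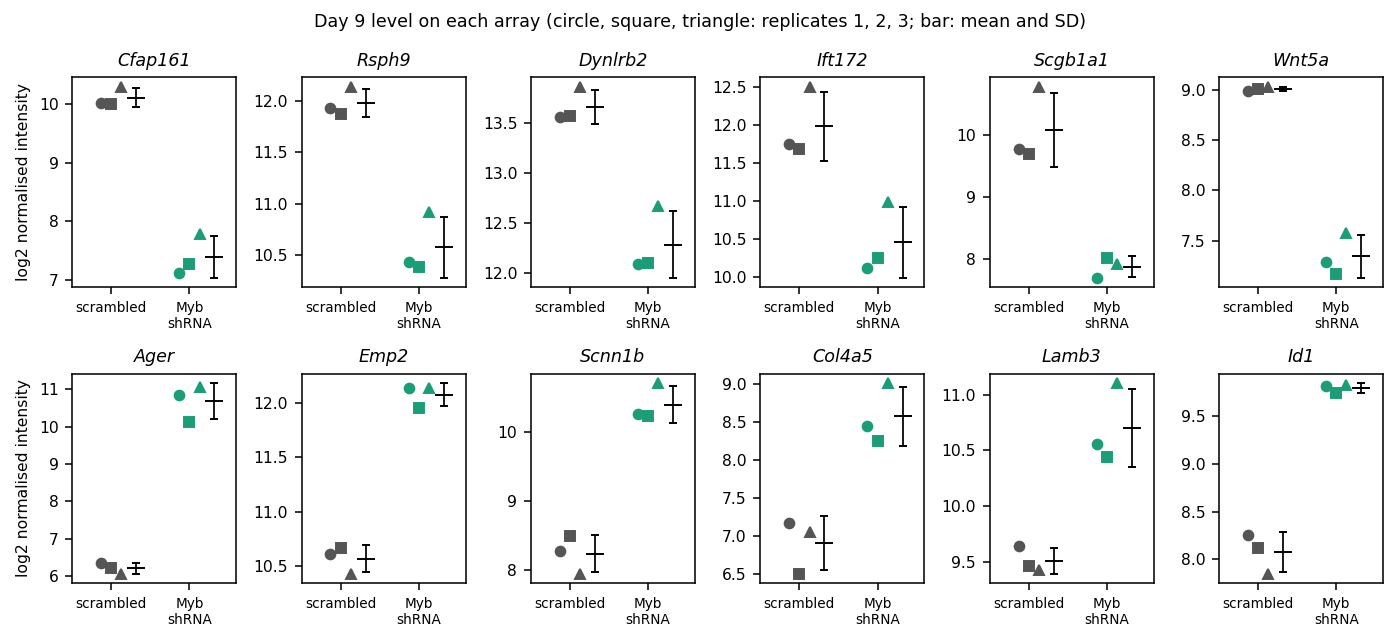
Level of 12 genes on each day 9 array (log2 normalised intensity), with the mean and SD of 3 arrays per group. For each gene the scrambled and Myb shRNA arrays do not overlap, and ciliary genes such as Ift172 are highest on replicate 3 in both groups.

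Other genes known from ciliated cells moved the same way: 24 of 25 fell, and their median difference was -1.44. Summed over the list, the linear normalised intensity ranged from 53493 to 71007 on scrambled and from 19691 to 29991 on Myb shRNA arrays. Ttc29 read 10.17, 10.21 and 10.79 against 7.25, 6.95 and 8.30 and fell by 2.89 ± 0.33. Fam216b fell by 2.91, Ankrd66 by 2.29 and Cdhr4 by 2.08. Cdhr3, a cadherin-related protein that serves as a rhinovirus C receptor in humans, fell by 1.99, and Pifo and Iqca, whose windows are shown above, fell by 1.66 and 1.62. The ciliated cell gene Sntn did not pass, at -0.44 ± 0.19, and was detected on 2 scrambled and 1 Myb shRNA arrays.

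Enzymes that handle nucleotides, not all of them specific to the axoneme, fell in 7 of 10 cases and rose in 1. The rise was lost without scrambled replicate 1 or 3 or Myb shRNA replicate 1 or 2. Nme5 and Nme7, described above, are also members of this list. Ampd1, an AMP deaminase best known from muscle, read 8.75, 8.64 and 9.39 against 5.90, 6.17 and 6.40. The groups do not overlap, and the difference was -2.77 ± 0.22 (adjusted p = 1.53e-05). The adenylate kinases Ak7 and Ak8 fell by 1.88 and 1.52, and brain-type creatine kinase Ckb by 0.86. The tubulin list had 6 falls and 1 rise among 22, with a median of -0.00 (-0.095 to 0.064 without 1 array). The rises numbered 2 with the block and 3 without Myb shRNA replicate 3. Tuba1a, an alpha tubulin, fell by 1.25, Tubb4b, a beta tubulin of cilia, by 0.72, and Tppp3, which binds microtubules, by 1.28. Opposite changes were found among glutamylases, which add glutamate chains to tubulin: Ttll9 fell by 1.32, detected on 1 Myb shRNA array, while Ttll11 read 6.02, 5.96 and 5.69 against 8.56, 8.51 and 7.97. The Ttll11 groups do not overlap, Myb shRNA being higher (2.46 ± 0.40, adjusted p = 0.000891).

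Intraflagellar transport, the BBSome that sorts membrane cargo, and the transition zone gate at the cilium's base serve motile and primary cilia alike. Their list medians lay nearer 0 than those of the axonemal classes. Of 24 transport genes 16 fell (median -0.79), and of 29 BBSome and transition zone genes 15 (-0.57), or 10 without scrambled replicate 1 or 3 or Myb shRNA replicate 1 or 2. None rose. Ift172, of the anterograde B complex, read 11.75, 11.69 and 12.50 with scrambled shRNA, against 10.12, 10.26 and 10.98 with Myb shRNA. No array overlaps, and the fall was 1.52 ± 0.28 (adjusted p = 0.00228). B complex members Ift74, Ift27 and Ift20 fell by 1.09, 0.98 and 0.54, Ttc26 by 1.09, the kinesin-2 motor Kif3a by 0.91, and the retrograde dynein intermediate chain Wdr34 by 0.86. The A complex protein Ift140 was at -0.86 ± 0.29 (adjusted p = 0.0554, and 0.000593 with the block), and Kif3b at -0.12 ± 0.18. With the block 22 of the 24 passed. The BBSome subunits Bbs7, Bbs5 and Bbs4 fell by 0.87, 0.92 and 0.73, while Bbs1 and Bbs2 were at -0.48 ± 0.24 and -0.35 ± 0.16. At the transition zone Cc2d2a fell by 1.10, Tmem107 by 1.05, B9d1 by 0.83 and Mks1 by 0.54, the last a call lost without scrambled replicate 1 or 2 or Myb shRNA replicate 1 or 2 (adjusted p up to 0.0981). Arl3, a GTPase that releases lipidated cargo in the cilium, fell by 0.74.

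Centriole and basal body genes fell in 8 of 23 cases (median -0.54), in 16 with the replicate block, in 5 without Myb shRNA replicate 2 and in 13 without Myb shRNA replicate 3. Cetn4, a centrin, read 12.23, 12.14 and 12.59 against 10.53, 10.43 and 11.08, a fall of 1.65 ± 0.20 without overlap (adjusted p = 0.000152). Cep78 fell by 1.02, Cep19 by 0.84, and Cep97, a partner in capping centrioles that was detected on 1 Myb shRNA array, by 0.94. Sass6, the cartwheel protein that sets the centriole's symmetry, was at -0.65 ± 0.26 (adjusted p = 0.115, and 0.00607 with the block). Cep152, a centriole duplication scaffold, was at 0.06 ± 0.22.

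Next come the regulators above these structures. Of 15 measured, 5 fell and none rose (median -0.43), and the count was 2 without any 1 of the 3 scrambled arrays or Myb shRNA replicate 2, and 3 without Myb shRNA replicate 1. The master switch Mcidas read 8.24, 8.10 and 7.85 with scrambled shRNA, against 8.09, 7.87 and 8.92 with Myb shRNA, so the groups overlap and Myb shRNA replicate 3 is highest (0.23 ± 0.33). Ccno, a cyclin needed for centriole amplification, read 11.59, 11.77 and 11.29 against 11.64, 11.74 and 12.10, also overlapping (0.28 ± 0.22). Foxj1, which turns on motile cilium genes, read 6.88, 7.42 and 7.41 against 6.30, 6.69 and 7.45 (-0.42 ± 0.26, adjusted p = 0.331). These 3 did not pass, also with the block (adjusted p = 0.507, 0.280 and 0.112). Ccna1, a cyclin A of germ cells and multiciliated cells, read 8.78, 8.88 and 8.81 against 7.46, 7.25 and 8.08 and fell by 1.22 ± 0.20 (adjusted p = 0.00107). Ccdc78, of the deuterosome on which centrioles are multiplied, fell by 1.12 ± 0.25 (adjusted p = 0.00668). Both passed whichever array was left out, while Rfx2, E2f5 and Ulk4, with falls of 0.95, 0.51 and 0.62 and adjusted p of 0.0496, 0.0496 and 0.0433, passed in 1 of 6 such fits each (adjusted p up to 0.167, 0.158 and 0.187).

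**Figure D3:**
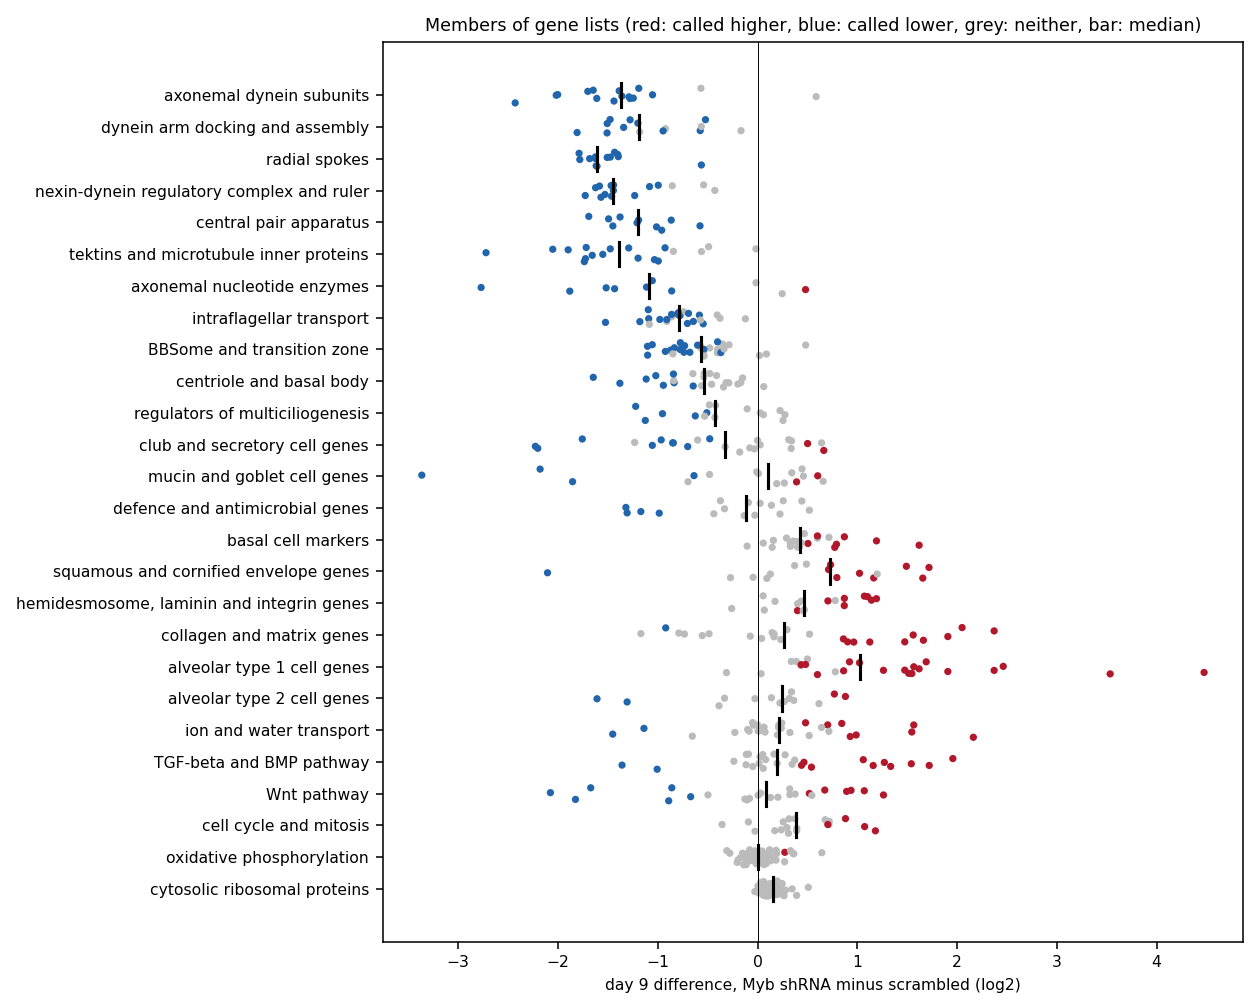
Difference of each tested member of 26 gene lists (log2, horizontal axis), coloured by call, with the list median as a bar. Medians of the 6 axonemal classes at the top lie between -1.19 and -1.61, those of the multiciliogenesis regulators at -0.43 and alveolar type 1 genes at 1.02.

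Secretory cells share the culture with ciliated cells. Of 23 club and secretory cell genes 9 fell and 2 rose (median -0.32, or -0.15 without scrambled replicate 3). The rises numbered 1 without any array other than Myb shRNA replicate 3, and the falls numbered 5 without scrambled replicate 3. Scgb1a1, the secretoglobin that defines club cells, read 9.78, 9.70 and 10.77 with scrambled shRNA, against 7.71, 8.02 and 7.93 with Myb shRNA. All Myb shRNA arrays were below all scrambled ones, and the fall was 2.20 ± 0.26 (adjusted p = 0.000116). Scgb3a1, a related secretoglobin, fell by 1.76 ± 0.27, Sec14l3, a lipid transfer protein of ciliated and secretory airway cells, by 2.23 ± 0.37, and Aldh1a1, a retinaldehyde dehydrogenase, by 1.05 ± 0.14. Of enzymes that process foreign compounds, Cbr2, a carbonyl reductase, was at -0.03 ± 0.06, Cyp2a5 at -0.18 ± 0.10 and Gsta3 at 0.03 ± 0.09. Cyp2f2 read 15.43 on all 6 arrays. It was the brightest gene on each, and quantile normalisation gives the brightest probe the same value by construction, so it could not show a difference in this setting. Bpifa1, a secreted antimicrobial and surface-active protein, was at 0.31 ± 0.11 (adjusted p = 0.0674, and 0.0309 with the block), and the glutathione transferase Gsta4 rose by 0.66 ± 0.15.

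Mucin and goblet cell genes went both ways, with 4 of 16 lower and 2 higher (median 0.10, or 0.035 to 0.23 without 1 array, the highest without scrambled replicate 3), no rise passing without scrambled replicate 3 or Myb shRNA replicate 1 or 2. Clca3b, of a family of secreted chloride channel regulators that includes goblet cell products, had the largest fall of all genes tested. It read 10.98, 10.89 and 11.90 against 7.63, 7.59 and 8.44, without overlap, a fall of 3.36 ± 0.30 (adjusted p = 2.1e-05). Itln1, a lectin of mucus, and Gp2, a glycoprotein that binds bacteria, fell by 1.85 and 2.18, each detected on 1 Myb shRNA array. Mucins Muc1, Muc4 and Muc16 did not pass, at 0.27 ± 0.25, 0.45 ± 0.43 and -0.01 ± 0.33. Muc5ac did not pass the detection filter, and Muc5b was not analysed here.

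Defence genes fell in 4 of 16 cases, and none rose. Reg3g, a bactericidal lectin, read 13.31, 13.30 and 13.18 against 12.00, 12.24 and 12.05, tight and separate groups (-1.17 ± 0.13, adjusted p = 9.1e-05). The lysozymes Lyz1 and Lyz2 fell by 0.98 and 1.31. These are near-identical genes whose probes may share signal. Chia1, an acidic chitinase, fell by 1.32, while the abundant Ltf (lactotransferrin) and Wfdc2 were at -0.03 ± 0.07 and 0.03 ± 0.08. Of the histamine genes, Hdc, which makes histamine, and Aoc1, which breaks it down, passed the detection filter. Hdc fell by 1.15 ± 0.19 from 13.18 ± 0.17 (SD, n = 3), and Aoc1 read 9.13, 8.90 and 10.33 against 6.63, 6.34 and 7.67 without overlap and fell by 2.57 ± 0.35 (adjusted p = 0.000322).

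Of 54 enzymes of xenobiotic metabolism 9 rose and 9 fell (14 with the block). Cyp3a13 read 7.67, 7.80 and 7.65 against 8.57, 8.62 and 8.60, and Cyp1b1 rose as well, by 0.91 ± 0.15. On the other side, Ces1f, a carboxylesterase, fell by 1.27 and Mgst2, a microsomal glutathione transferase, by 1.01. Rises in this list numbered 4 without scrambled replicate 3 or Myb shRNA replicate 1 and 5 without Myb shRNA replicate 2. Among 15 antioxidant genes Gpx2, a glutathione peroxidase of epithelia, fell by 0.51 ± 0.10 from 14.31 ± 0.06 (SD, n = 3), while the quinone reductase Nqo1 was at -0.62 ± 0.25 (adjusted p = 0.119, and 0.0146 with the block).

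Genes known from alveolar type 1 cells, the flat gas-exchange cells of the distal lung, rose in most cases. Of 25 tested 18 rose and none fell (median 1.02), and 17 or 18 rose when any array was left out. Of the 22 detected in both groups 15 rose (median 0.89). Ager, the receptor for advanced glycation end products that marks these cells, read 6.34, 6.21 and 6.06 with scrambled shRNA, against 10.86, 10.12 and 11.05 with Myb shRNA. Every Myb shRNA array was far above every scrambled one, and the difference of 4.48 ± 0.35 was the largest rise of all genes tested (adjusted p = 1.53e-05). Akap5, which anchors protein kinase A, read 5.38, 5.64 and 5.09 against 9.14, 8.48 and 9.10 (3.53 ± 0.32), and 1 scrambled array detected it. Emp2, a tetraspan membrane protein, read 10.60, 10.67 and 10.42 against 12.14, 11.96 and 12.14, so the rise was also seen in a gene well above background in both groups (1.52 ± 0.13, adjusted p = 2.06e-05). Gprc5a, an orphan receptor, rose by 1.26, the caveola protein Cav1 by 1.62, the LIM protein Lmo7 by 1.02, the water channel Aqp5 by 0.48 and podoplanin (Pdpn), which basal cells also carry, by 0.60. Clic5 and Igfbp2 went undetected on the scrambled arrays and stood at least 1.89-fold and 1.76-fold higher with Myb shRNA. Cryab, a small heat shock protein, rose by 2.46 ± 0.49, from 6.89, 6.87 and 5.23 to 9.04, 8.89 and 8.44, with scrambled replicate 3 apart from the other two. Hopx, a homeodomain-like factor of these cells, was at 0.50 ± 0.29 (adjusted p = 0.293), and Cav2 at 0.04 ± 0.15. The alveolar type 1 list was chosen with earlier results of these data known, so its count is no independent evidence. The list shares members with others counted here, such as Cav1 with the basal markers, Timp3 with the matrix genes and Scnn1g with ion transport.

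Alveolar type 2 genes did not follow: 2 of 14 rose (1 without scrambled replicate 3) and 2 fell (median 0.25). Sftpc, surfactant protein C, fell from 6.61, 6.46 and 7.31 to 4.86, 5.09 and 5.61 (-1.61 ± 0.24, adjusted p = 0.000476), and 1 Myb shRNA array detected it. The collectin Sftpd, at 14.49 ± 0.08 and 14.63 ± 0.04 (SD, n = 3 each), did not pass.

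Collagens and other matrix proteins form the basement membrane, to which hemidesmosomes and integrins anchor cells. Of 24 collagen and matrix genes 10 rose and 1, the gelatinase Mmp2, was lower (5 were lower with the block), and the median was 0.26. Without 1 array that median lay between 0.15 (without scrambled replicate 3) and 0.53 (without Myb shRNA replicate 3). Of the 21 detected in both groups 8 rose and none fell, since no Myb shRNA array detected Mmp2, which was at least 1.57-fold lower. The type IV collagen chains of the alpha3, alpha4 and alpha5 network, a basement membrane form found in lung and kidney, were all higher: Col4a5 read 7.17, 6.51 and 7.06 against 8.46, 8.26 and 9.01 (1.66 ± 0.28, adjusted p = 0.00122) and Col4a4 rose by 1.48. Col4a3 went undetected on the scrambled arrays and stood at least 4.19-fold higher with Myb shRNA. Sparc, a matrix glycoprotein, rose by 1.56, Ogn (osteoglycin) by 2.05, the membrane protease Mmp14 by 0.90 and the inhibitors Timp2 and Timp3 by 0.86 and 1.91. Timp4, a further protease inhibitor that is no member of the list, went the other way, from 8.25, 7.85 and 8.39 to 5.24, 5.11 and 5.96, with 1 Myb shRNA array detecting it (-2.73 ± 0.24, adjusted p = 2.06e-05). Of 17 hemidesmosome, laminin and integrin genes 8 rose and none fell (median 0.47), or 5 without scrambled replicate 1 or Myb shRNA replicate 3. Lamb3, the beta chain of laminin-332, read 9.65, 9.46 and 9.43 against 10.56, 10.44 and 11.10 (1.19 ± 0.20, adjusted p = 0.00123), and Lama3, its alpha chain, rose by 0.87. The integrin Itgb6, which activates latent TGF-beta, rose by 1.07 ± 0.16, Itgb5 by 0.71 and Itga9 by 0.87. Itgb4, the hemidesmosomal integrin, was at 0.40 ± 0.24 (adjusted p = 0.304, and 0.0284 with the block).

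Basal cell markers rose in 7 of 22 cases and none fell (median 0.43), with 11 rising under the block. Besides Cav1, Pdpn, Lamb3 and Lama3, these were the laminin receptor Bcam (0.79 ± 0.17), Dlk2 (0.77 ± 0.18) and Krt15 (0.51 ± 0.13), whose call was lost without scrambled replicate 1 or 3 or Myb shRNA replicate 1 or 2 (adjusted p up to 0.0892). The defining markers did not pass: Krt5 was at 0.60 ± 0.28, Trp63 at 0.42 ± 0.29, Krt14 at 0.33 ± 0.19 and Ngfr at -0.10 ± 0.26. Of 16 genes of squamous cells and the cornified envelope 8 rose, and Dmkn (dermokine) fell by 2.10 (median of the list 0.72). Tgm1, which cross-links the envelope, read 5.82, 5.86 and 5.19 against 7.60, 7.32 and 7.09, 2 of 3 scrambled arrays having detected it (1.72 ± 0.20, adjusted p = 0.000126). Ecm1 rose by 1.66, the envelope proteins Scel and Ppl by 0.80 and 0.71, and Krt4 by 1.02. Krt7, a simple epithelial keratin, rose by 0.92. Krt13 read 6.30, 6.03 and 10.99 in Myb shRNA cultures, so replicate 3 alone was high, and its difference of 1.20 ± 1.00 did not pass. Of 21 junction genes 2 rose (5 with the block, 1 without scrambled replicate 3 or Myb shRNA replicate 1 or 2) and 3 fell, shares near those of all genes (7.11% and 10.1%): Cldn10, an ion-selective claudin, fell by 1.56 and Cldn3 by 0.48, while Cldn23 rose by 0.86.

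Ion and water transport genes rose in 8 of 30 cases and fell in 2 (median 0.21). All 3 subunits of the epithelial sodium channel, which draws fluid off the airway surface, rose. Scnn1b read 8.28, 8.48 and 7.94 with scrambled shRNA, against 10.25, 10.23 and 10.70 with Myb shRNA, without overlap (2.16 ± 0.40, adjusted p = 0.00223). Scnn1g rose by 1.57 ± 0.34, and Scnn1a, the alpha subunit, by 0.70 ± 0.19 (adjusted p = 0.0238), a call lost without Myb shRNA replicate 3 or scrambled replicate 1 or 2 (adjusted p up to 0.101). Slc12a2, the basolateral chloride loader, rose by 0.84, the calcium channel Trpv4 by 0.93 and Clic3 by 0.99. Best1, a calcium-activated chloride channel, fell by 1.45 and Clic6 by 1.14. Aqp4, a basolateral water channel, was at -0.65 ± 0.23 (adjusted p = 0.0646, and 0.00116 with the block). Cftr did not pass the detection filter.

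**Figure D4:**
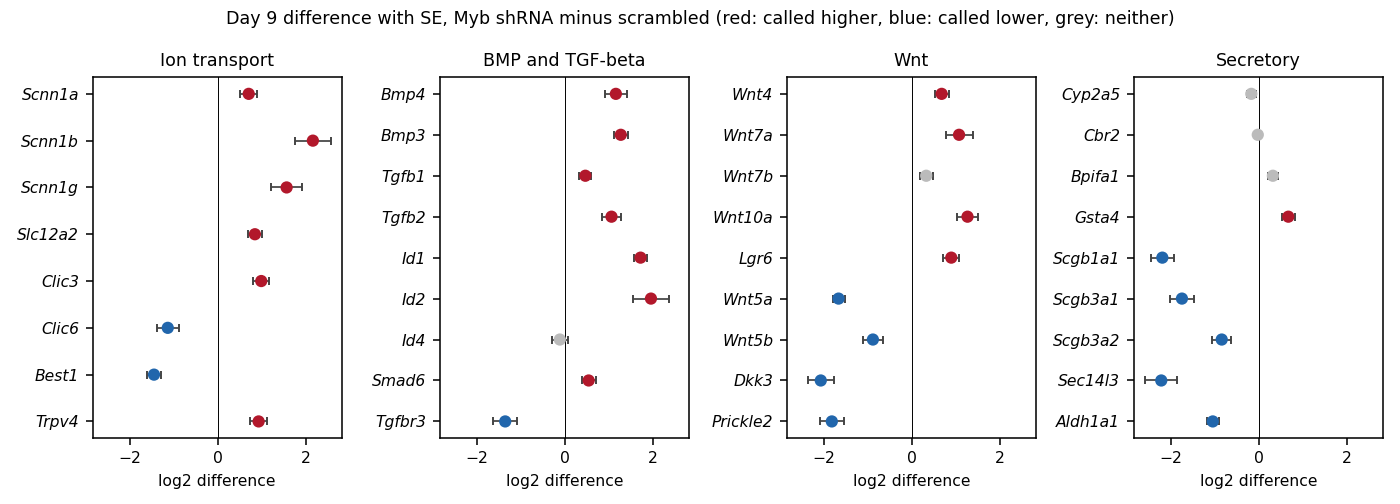
Differences at day 9 with SE (log2) for genes of ion transport, BMP and TGF-beta, Wnt and secretory function, coloured by call. Scnn1b and Scnn1g, Id1 and Id2 lie above 1, and Wnt5a, Dkk3 and Prickle2 lie below -1.

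Bone morphogenetic protein (BMP) and TGF-beta ligands signal through Smad proteins, and Id genes are the usual BMP targets. Of 27 genes of these pathways 10 rose, 8 of them detected in both groups, and 2 fell (median 0.20), the falls numbering 1 without scrambled replicate 1 or 2 or Myb shRNA replicate 2 or 3. Among ligands, Bmp4 read 8.37, 8.19 and 7.62 against 9.39, 9.05 and 9.22 (1.16 ± 0.25, adjusted p = 0.00616), and Bmp3 and Tgfb2 rose by 1.27 and 1.06. Tgfb3, not detected in scrambled cultures, stood at least 2.30-fold higher. Of the targets, Id1 read 8.26, 8.12 and 7.85 against 9.82, 9.74 and 9.83, without overlap (1.72 ± 0.15, adjusted p = 2.1e-05), and Id2 rose by 1.96 ± 0.40. Id3, not detected in scrambled cultures, stood at least 1.57-fold higher, while Id4 was at -0.11 ± 0.19. The co-receptor Tgfbr3 fell by 1.36 ± 0.28.

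Wnt pathway genes were split, 6 of 24 rising and 6 falling. Wnt5a, a ligand of the non-canonical branch, read 9.00, 9.01 and 9.03 with scrambled shRNA, against 7.29, 7.16 and 7.58 with Myb shRNA. The scrambled arrays were nearly identical and the Myb shRNA arrays all lower (-1.67 ± 0.14, adjusted p = 1.53e-05). Prickle2, a planar polarity protein, fell by 1.82 and the secreted modulator Dkk3 by 2.08, detected on 1 Myb shRNA array. The inhibitor Sfrp1, detected on no Myb shRNA array, stood at least 1.22-fold lower. Rises were those of the ligands Wnt4 (0.67 ± 0.16) and Wnt10a (1.26 ± 0.24), the receptor Fzd5 (0.52 ± 0.12) and Lgr6, an R-spondin receptor (0.89 ± 0.18). Axin2, a target of canonical signalling, was detected on all scrambled and no Myb shRNA arrays. It stood at least 1.22-fold lower and did not pass without the block. Ctnnb1, beta-catenin, was at -0.08 ± 0.15.

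In the Notch pathway, which divides secretory from ciliated fate, 2 of 15 genes fell and none rose. These counts are near the shares of all genes (10.1% lower, 7.11% higher). The target Hey1 read 9.84, 9.76 and 10.16 against 7.96, 8.10 and 8.27 (-1.81 ± 0.22, adjusted p = 0.000152), and Hes6, an antagonist of Hes1 that ciliating cells express, fell by 1.49 ± 0.15. Hes1 was at -0.09 ± 0.12. With the block 3 rose and 3 fell, among them the ligand Jag2 (0.73 ± 0.28, adjusted p = 0.100, and 0.00459 with the block). Of 10 genes of the EGF receptor family 1 rose (3 with the block), a share near the 7.11% of all genes. This was the feedback inhibitor Errfi1, by 1.09 ± 0.19. Hbegf, a ligand, was at 0.82 ± 0.27 (adjusted p = 0.0561, and 0.000955 with the block). Among 36 epithelial transcription factors 5 rose and 2 fell, a called share near the 17.2% of all genes. With the block 7 rose and 6 fell, against 2329 called of all 8850. The rises numbered 3 without Myb shRNA replicate 3, and no fall passed without scrambled replicate 3 or any 1 Myb shRNA array. Gata6, a factor of lung endoderm, read 7.06, 6.76 and 6.53 against 8.17, 7.94 and 7.71 (1.16 ± 0.19, adjusted p = 0.000957), and Grhl1 rose by 0.66. Foxa1 and Klf5, among the highest of the list, were at -0.04 ± 0.33 and 0.17 ± 0.24. Sox2, which marks airway epithelium, was at -0.54 ± 0.22 (adjusted p = 0.121, and 0.00884 with the block).

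Cell cycle genes rose in 4 of 20 cases, and 1 of 26 replication genes rose (2 with the block or without Myb shRNA replicate 3) and 1 fell. Kif23, a kinesin of cytokinesis, read 7.77, 7.70 and 7.54 against 9.13, 8.68 and 8.75 (1.18 ± 0.20, adjusted p = 0.00142), but Cdk1 and Cdc20 were at -0.03 ± 0.15 and -0.09 ± 0.25. The number of cell cycle rises was 1 without Myb shRNA replicate 1 and 2 without Myb shRNA replicate 2. Rrm1, of ribonucleotide reductase, rose by 0.83, and the clamp loader subunit Rfc2 fell by 0.89. Of the 8 cyclin-dependent kinase inhibitors Cdkn1c (p57) read 10.24, 10.44 and 10.83 against 8.97, 9.10 and 9.58, a fall of 1.29 ± 0.18 (adjusted p = 0.000408). Cdkn2a, not detected in scrambled cultures, stood at least 1.98-fold higher, and Cdkn1a (p21) was at 0.24 ± 0.10. Targets of p53 rose in 6 of 24 cases, in 11 with the block and in 3 without scrambled replicate 3. Ccng1 rose by 0.86 ± 0.14 and Zmat3 by 0.75 ± 0.16, while Mdm2 was at -0.13 ± 0.12.

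Among 26 interferon-stimulated genes 4 fell and 1 rose (2 with the block), shares near those of all genes (10.1% lower, 7.11% higher). Ifitm1, a membrane protein that restricts viruses, went from 14.37 ± 0.45 to 12.94 ± 0.51 (SD, n = 3 each; -1.43 ± 0.31, adjusted p = 0.00627), and Usp18 fell by 0.84, while Irf1 was at 0.12 ± 0.10. Of 61 genes of oxidative phosphorylation 1 rose, or 4 with the block and none without scrambled replicate 1 or 3 or Myb shRNA replicate 1 or 2 (median 0.00), and of 43 cytosolic ribosomal protein genes none passed (median 0.16, or 0.061 without scrambled replicate 3 and 0.24 without Myb shRNA replicate 3, at an unadjusted p under 0.05 6 did, and with the block 7 rose). Of 22 genes of cholesterol and fatty acid synthesis 1 rose, a call lost without scrambled replicate 2 or 3 or Myb shRNA replicate 1. Of 25 of the unfolded protein response 1 fell, a call kept in the fit without scrambled replicate 2 and in no other such fit. Of 22 peroxisomal and fatty acid genes 2 rose (4 with the block) and 2 fell, shares near those of all genes (7.11% and 10.1%). In the fits without 1 day 9 array the falls numbered 1 each time and the rises 1 or 2. Acaa1b, a peroxisomal thiolase, rose by 2.14 ± 0.49 and Acox2, a bile acid and branched-chain oxidase, fell by 0.98. The thioesterase Acot1 read 12.10, 12.06 and 12.54 against 9.44, 9.30 and 10.25 (-2.57 ± 0.29, adjusted p = 8.86e-05). P4ha2, a collagen prolyl hydroxylase of the hypoxia list, rose by 1.05 and Aldoc, an aldolase, fell by 1.15.

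Most other large changes were falls. Myl4, a myosin light chain of embryonic muscle and atria, read 10.84, 10.71 and 11.15 against 7.41, 7.38 and 8.20, without overlap (-3.24 ± 0.26, adjusted p = 1.53e-05). Serpinb12, an intracellular protease inhibitor, fell by 3.24 ± 0.48, Diras2, a Ras-family GTPase, by 3.13 ± 0.47, and Kcnrg, a potassium channel regulator, by 2.72 ± 0.27. Fgl1, a fibrinogen-like protein, fell by 2.45. Serpina9, a serine protease inhibitor, fell by 2.64, detected on 1 Myb shRNA array. The collagen chaperone Serpinh1 rose by 1.10 and the Ras-like gene Rasl11b by 2.42. Sh3tc2 and Sncg (gamma-synuclein), not detected in scrambled cultures, stood at least 2.23-fold and 2.78-fold higher. The glucose transporter Slc2a3 rose by 1.96 ± 0.53, detected on 1 scrambled array, and lost its call without scrambled replicate 3 or Myb shRNA replicate 2 (adjusted p up to 0.0975).

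Markers of cells other than epithelium were few, and so were those of tuft cells, ionocytes and neuroendocrine cells of the epithelium. Of 12 endothelial markers 3 passed the filter, and Pecam1, Cdh5 and Kdr did not. The 3 sum to between 346 and 481 linear normalised intensity units on scrambled and between 837 and 873 on Myb shRNA arrays. Esam, an adhesion protein of endothelium and platelets, rose by 1.96 ± 0.23 and Plvap, a diaphragm protein, by 1.01 ± 0.21. The remaining marker, Egfl7, went the other way, at -0.35, and did not reach the threshold. Of 16 fibroblast and smooth muscle markers 3 passed the filter and none rose or fell, with sums of 386 to 421 against 290 to 589. Col1a1, Col1a2 and Col3a1 did not pass the filter. Of 19 leukocyte markers, 17 with a named probe, 4 passed the filter and Ptprc did not. Apart from the lysozymes Lyz1 and Lyz2 these were Cd68 and Laptm5, at -0.13 ± 0.16 and -0.24 ± 0.19. The sum of the 4, of which only the lysozymes fell, ranged from 29022 to 31065 against 12697 to 15197. Both lysozymes are also counted among the defence genes above. Of 14 tuft cell markers, 13 with a named probe, and of 10 ionocyte markers 2 each passed the filter. The taste-signalling subunit Gng13 fell by 1.86, Dclk1 rose by 0.60 (a call lost without scrambled replicate 1 or 3 or Myb shRNA replicate 2 or 3, adjusted p up to 0.128), and the proton pump subunit Atp6v1c2 fell by 1.11. Pou2f3, Trpm5 and Foxi1 did not pass the filter. The 2 tuft markers summed to 509 to 612 against 276 to 390, and those of ionocytes to 573 to 640 against 322 to 385. Of 10 neuroendocrine markers, 9 with a named probe, 1 passed the filter, Cplx2, at -0.23 ± 0.18. Of 14 pan-epithelial markers 12 passed the filter, and E-cadherin (Cdh1) was at 0.06 ± 0.14. Any part of non-epithelial cells, tuft cells, ionocytes or neuroendocrine cells in the results above was not tested.

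At ALI day 3, the earlier stage, 2042 of the same genes passed (23.1%), and an interaction term asked where the Myb shRNA difference at day 9 departs from that at day 3. It passed for 143 genes (1.62%), with the day 9 difference above that of day 3 in 69 (0.78%) and below it in 74 (0.836%). The count rests on single arrays, being 47 without day 3 Myb shRNA replicate 1, 55 without day 9 Myb shRNA replicate 2, 69 without day 9 scrambled replicate 3 and 318 without day 3 scrambled replicate 3. It was 689 with the block.

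The direction reversed for Plvap, which was higher with Myb shRNA at day 9 and lower at day 3 (1.01 ± 0.21 and -2.56 ± 0.21, interaction 3.56 ± 0.29, adjusted p = 0.000132). Shisa8, a membrane protein of a family of receptor adaptors, did the same (0.88 ± 0.25 and -2.36 ± 0.25, interaction 3.24 ± 0.35, adjusted p = 0.00165), though its day 9 call was lost without scrambled replicate 3 or Myb shRNA replicate 1 or 3 (adjusted p up to 0.103). Over the 13 lists of ciliary and centriolar genes and their regulators the interaction passed for 21 of 230 genes, with the day 9 difference above that of day 3 in 18 and below it in 3. On the first side, Ccna1 was at -1.22 and -3.74, where the day 3 value is only a fitted one because no day 3 Myb shRNA array detected the gene. Lrrc23 was at -1.63 and -4.06 (interaction 2.43 ± 0.35), Morn5 at -1.83 and -3.85 (2.02 ± 0.24) and Zmynd10 at -1.28 and -3.21 (1.93 ± 0.32). On the other side, Ampd1 was at -2.77 and -1.28, an interaction that passed in 5 of 12 fits without 1 array. The other genes on that side were Ankrd66, at -2.29 and -1.09 with no day 3 Myb shRNA array detecting it, and the beta-tubulin Tubb2b, at 0.01 ± 0.15 at day 9 and 1.13 ± 0.15 at day 3. List medians also went both ways: the radial spoke median was -1.61 at day 9 and -2.53 at day 3, that of the tektins and inner proteins -1.38 and -2.21, that of dynein subunits -1.37 and -1.10, that of the central pair -1.20 and -0.59 and that of the nexin-dynein complex -1.44 and -1.02. These differences of medians were not tested. Among the regulators, Mcidas and Ccno were at -1.99 ± 0.33 and -1.83 ± 0.22 at day 3 against 0.23 and 0.28 at day 9 (interaction adjusted p = 0.0312 and 0.00671). That of Mcidas passed in 6 of 12 fits without 1 array (adjusted p up to 0.102) and that of Ccno in all 12, whereas that of Foxj1, at -1.38 ± 0.26 at day 3, did not pass (adjusted p = 0.248).

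Clca3b, Timp4, Dkk3 and Lbh passed the test at day 9 and had smaller differences at day 3. Clca3b was at -3.36 ± 0.30 against -0.57 ± 0.30 (interaction -2.79 ± 0.43, adjusted p = 0.0079), Timp4 at -2.73 against -0.41, with 1 of 6 day 3 arrays detecting it, Dkk3 at -2.08, with 1 day 9 Myb shRNA array detecting it, against 0.24, and Lbh, a transcriptional cofactor, at -2.12 against 0.14. The Dkk3 interaction was lost without day 3 Myb shRNA replicate 1 or day 9 Myb shRNA replicate 2 (adjusted p up to 0.0659). The secreted ribonuclease Rnase4 and the surface protein Ly6c1 had differences of opposite sign on the days: they fell by 1.28 and 1.32 at day 9 and were at 0.86 ± 0.26 and 0.70 ± 0.28 at day 3 (adjusted p = 0.0303 and 0.0899). The Ly6c1 interaction passed in 6 of 12 fits without 1 array (adjusted p up to 0.075). Wnt5a was at -1.67 and -0.51 (interaction -1.17 ± 0.19, adjusted p = 0.0104). For most genes described above the interaction did not pass, which does not show that the days are alike, since the median SE of the interaction was 0.23. None of the 25 alveolar type 1 genes passed it, and Ager was at 4.48 ± 0.35 and 2.41 ± 0.35 (interaction adjusted p = 0.0570).

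**Figure D5:**
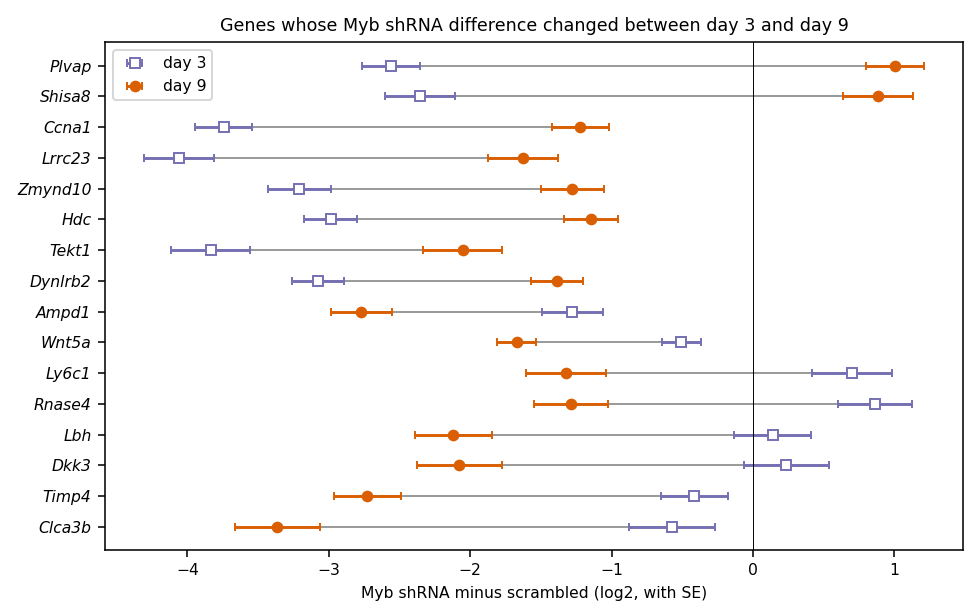
Difference between Myb shRNA and scrambled cultures (log2, with SE) at day 3 (open squares) and day 9 (filled circles) for 16 genes that passed the interaction test. Plvap, Shisa8, Ly6c1, Rnase4, Dkk3 and Lbh differ in sign. Ccna1, Lrrc23, Zmynd10, Tekt1 and Dynlrb2 lie closer to 0 at day 9, and Ampd1, Clca3b, Timp4 and Dkk3 lie further from 0 at day 9.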

How the data were processed

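The authors deposited, per the file headers, a bead-summarised signal intensity and a detection p-value per probe and array, not normalised, and a table of processed log2 values. Per the submitters' processing notes, BeadStudio 3.0 and limma were used. The array annotation and genome build were not given in the sources used here. Of the signals on the day 9 arrays 28.8% to 32.5% were below 0, so the deposited intensities were already background-subtracted.

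All 12 arrays were corrected and quantile-normalised together with limma 3.58.1 (neqc, offset 16) in R 4.3.3, and log2 values of a gene's brightest probe were fitted in 4 groups of 3 arrays with lmFit and trended eBayes (8 residual degrees of freedom, prior 5.18, median SE 0.165). P-values are limma's, two-sided and Benjamini-Hochberg adjusted over all 8850 genes. The files give no bead counts, so the number of arrays limits precision. The labels do not say whether replicate numbers pair the samples, and the main fit did not use these numbers. Deviations of same-numbered arrays from their group means correlated at 0.523, 0.313 and 0.637. Arrays of different number correlated at -0.562 to 0.239, and replicates 1 and 2 crossed at 0.211 and 0.239, so replicate 3 stands apart more clearly than 1 from 2.

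Members, lists and tests were chosen with earlier results of these data known. Named were the 15 largest non-overlapping rises and falls, up to 6 called members of a list by p, up to 3 of its brightest members that did not pass, subunits by role, and the 6 largest interactions each way. Other members that did not pass were named for their role after their values were seen. A gene undetected on all arrays of a day 9 group is given there as a lower bound of its fold, from the lowest detected signal of each array. Alternatives were the arrays fitted, the replicate block, detection filters, offset, normalisation, the authors' values, the variance model, probe averaging and leaving out each array.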

Additional observations from a re-analysis of the deposited data

Results flagged for a closer look

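In the following genes the Myb shRNA effect differed between ALI day 9 and day 3 by the interaction test (adjusted over all genes), and each value is the day 9 difference minus the day 3 difference on the log2 scale. The day 9 difference lay above that of day 3 by 3.56 in Plvap, 3.24 in Shisa8, 2.52 in Ccna1, 2.43 in Lrrc23, 2.21 in Mcidas, 2.11 in Ccno and 2.02 in Morn5. It lay above by 1.93 in Zmynd10, 1.84 in Hdc, 1.78 in Tekt1, 1.75 in Dnali1, 1.69 in Dynlrb2, 1.45 in Tmem107, 1.33 in Tppp3, 1.28 in Cdk1 and 1.13 in Rsph9. The difference of differences was -2.79 in Clca3b, -2.39 in Muc16, -2.32 in Timp4, -2.31 in Dkk3, -2.26 in Lbh, -2.15 in Rnase4 and -2.03 in Ly6c1. It was -1.78 in Cdkn2a, -1.49 in Ampd1, -1.20 in Ankrd66, -1.17 in Wnt5a, -1.12 in Tubb2b, -1.07 in Best1 and -0.82 in Usp18. Of these 30 interactions, those of Ampd1, Ankrd66, Best1, Cdkn2a, Dkk3, Ly6c1, Mcidas, Muc16, Rsph9, Tekt1, Tppp3, Tubb2b and Usp18 did not pass in at least 1 of the 12 fits that left out 1 array. Best1 passed in 2 of the 12, Ankrd66 and Usp18 in 3, and Ampd1, Cdkn2a and Tekt1 in 5. Tekt1 was also lost with cyclic loess and with the authors' values, Rsph9 with cyclic loess, Ankrd66 and Best1 with cyclic loess and with no detection filter, and Usp18 with no detection filter. At least 1 of the 4 groups had no array that detected Ankrd66, Best1, Ccna1, Cdkn2a, Muc16 or Timp4, so the values printed for these are fitted from levels at background and are not measured sizes.

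Probes without a gene name were left out of the comparison of genes. Of the 1501 that were detected, 60 were higher and 115 lower with Myb shRNA at day 9.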

How the results depend on the processing

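The count of called genes lay between 960 and 1362 when 1 day 9 array was left out, with 351 to 515 higher and 609 to 847 lower. The replicate block gave 2329 called genes (1147 higher), which held all 1522, and the 6 day 9 arrays alone with the block gave 3307 (1768 higher, 1539 lower). Array weights gave 2787 (1409 higher, 1378 lower) and median scaling 979 (370 higher), of which 968 were among the 1522. No gene called both by default and under another setting changed sign, but 2 of the 1522 had the opposite sign, not called, with the mean over probes, and in 2 genes different probes were called in opposite directions. Cyclic loess called 445 higher and 1006 lower. The block lost none of the 1522 default calls and added 807, so the changes of call with the block stated beside named genes are gains. The interaction was called for 689 genes with the block (325 above, 364 below), and for 47 to 318 when 1 of the 12 arrays was left out, with 32 to 156 above and 15 to 162 below. The cause of these shifts was not tested.

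Some named genes that did not pass the test changed sign, most of them near 0 but Krt13 not. With median scaling these were Cbr2 0.070, Ltf 0.053, Nme7 0.091; with array weights Cep152 -0.059, Krt13 -0.29, Mcidas -0.081; with cyclic loess Cav2 -0.025, Tubb2b -0.062; with the mean over probes Ctnnb1 0.19. Leaving out 1 array gave the ranges Cav2 -0.088 to 0.19, Cbr2 -0.056 to 0.0096, Cdc20 -0.37 to 0.064, Cdh1 -0.016 to 0.16, Cdk1 -0.19 to 0.14, Cep152 -0.10 to 0.19, Foxa1 -0.27 to 0.12, Gsta3 -0.014 to 0.095, Kif3b -0.31 to 0.046, Krt13 -0.41 to 2.07, Ltf -0.10 to 0.017, Mcidas -0.087 to 0.44, Muc16 -0.32 to 0.19, Nme7 -0.043 to 0.032, Pih1d1 -0.28 to 0.013, Tubb2b -0.10 to 0.12, Wfdc2 -0.020 to 0.072. The spread between 3 arrays, and no read depth, limits these values.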
